A study of Mus musculus with 22 samples.

Results

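The clustered histone genes encode the linker histone H1 and the core histones H2A, H2B, H3 and H4, which package DNA into nucleosomes. Members were taken by name as every gene of both count tables with a symbol beginning in Hist1, Hist2, Hist3 or Hist4, and 68 of 24421 genes met the rule. These genes lie in 4 groups of the mouse genome (build GRCm38, also named mm10), with 54 in Hist1 (chr13:21715713-23934913), 10 in Hist2 (chr3:96219916-96270192), 3 in Hist3 (chr11:58948911-58955192) and 1 in Hist4 (chr6:136803993-136804431). By product they are 6 genes of H1, 18 of H2A, 19 of H2B, 12 of H3 and 13 of H4.

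Most of these genes are transcribed when DNA is replicated, under the activator Npat, and their RNAs end in a stem-loop bound by Slbp in place of a poly-A tail. An RNA library made without poly-A selection can therefore hold them. In brain, where most neurons no longer divide, a further supply of histones comes from genes outside the clusters that are transcribed in all phases, such as H3f3a and H3f3b, and linker histone RNAs are also found in cells that do not divide.

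The study compared the transcriptome of the right brain hemisphere between mice of high and low social rank, read from encounters in a tube test. All mice were of the same strain, written as C57B6/J OlaHsd in the sample labels and spelled differently in the paper. They were aged 10 to 12 weeks, and the groups were 7 dominant males, 7 submissive males, 4 dominant females and 4 submissive females. Each dominant mouse had a submissive partner from the same cage, so that the 22 libraries formed 11 cages, numbered here by the replicate number of their mice as male cages 1 to 7 and female cages 1 to 4. Female cages 3 and 4 have group names (Gr) in place of cage numbers in their library names. Some females of the study were put together in new groups and ranked again, and whether female cages 3 and 4 are such groups is not stated. Females and males were deposited as separate tables, and the library names of each table begin alike and differ from those of the other. Separate sequencing projects are inferred from these names and not stated in the labels, and sex and such a difference cannot be told apart.

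Total counts per library ran from 12403943 to 16488762, with a median of 14948109. Males had 12403943 to 15805170 counts and females 14967458 to 16488762. Levels are given as CPM, a gene's counts scaled to a common library size, or, where genes are set side by side, as RPKM, which is CPM per kilobase of exon. A count of 0 allows a level of up to 0.182 to 0.242 CPM by library (3 counts of its total), and such limits cover counting error only.

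Some libraries stood apart over all genes, and they were singled out after their values were seen. Dominant male 1 lacked cerebellar transcripts, with Pcp2, a Purkinje cell gene, at 0 and a sum of 11.1 CPM over 4 cerebellar markers, against 216 to 459 in the other 13 males. Male cages 5 to 7 stood apart from the other 4 over all genes. Among submissive males the distance between libraries (chi-square per gene) was 2.03 to 4.32 within male cages 1 to 4, 1.88 to 3.28 within male cages 5 to 7, and 5.41 to 9.63 between them. Among dominant males other than dominant male 1 the same ranges were 2.09 to 3.15, 2.99 to 6.15 and 7.32 to 13.9, and dominant male 1 was 7.64 to 16.6 from the others. The labels name no batch for these cages, and the rank, male cage and table comparisons of the histone genes are also given without male cages 5 to 7. The interaction of rank and sex, the gene lists and the markers are given with all libraries only.

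Reads were found for 57 of the 68 genes, 52 of them in all 22 libraries and 5 in some. Per kilobase, 35 of the 57 lay above 3.98 RPKM, the median of the 20613 genes with reads, and the median of the 57 was 6.61. All 68 together took 0.0502 to 0.0684% of a library's reads. The 3 most abundant genes held 31.1% of the summed histone CPM, the first 5 held 44.7% and the first 10 held 66.8%. By product, H4 genes held 36.3%, H2B 24.99%, H1 23.3%, H2A 9.80% and H3 5.63% of that sum. These are shares of the reads counted. H2A and H3, the lowest, were also the classes that shared most sequence with other members by median, as given below. How reads with several matches were counted is not stated, so that the order of the classes may not be that of their transcripts.

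Among linker histones, Hist1h1e stood at 70.4 RPKM (43.5 to 94.1 over the 22 libraries) and Hist1h1c at 59.3 (40.7 to 81.8). Hist1h1d followed at 26.5, Hist1h1a at 15.4 and Hist1h1b at 6.61, and Hist1h1t, the testis form, had 0.0792. Every H1 gene thus had reads, and the ranges of Hist1h1e and Hist1h1c overlapped. Hist3h2a was the most abundant H2A gene at 67.2 (55.8 to 76.4), and 13 of 18 H2A genes had reads. Hist2h2bb led H2B at 106 (90.04 to 131), ahead of Hist3h2ba at 41.1 and Hist1h2bc at 29.5, and 16 of 19 H2B genes had reads. H3 genes held the smallest share of the sum. The highest of them, Hist1h3e, reached 21.7 (17.4 to 27.4), and 10 of 12 had reads. H4 genes held the largest share, with Hist1h4d at 199 (176 to 237), Hist1h4c at 97.1, Hist1h4h at 73.8, Hist1h4f at 38.3 and Hist2h4 at 36.1, and 12 of 13 had reads.

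**Figure D1:**
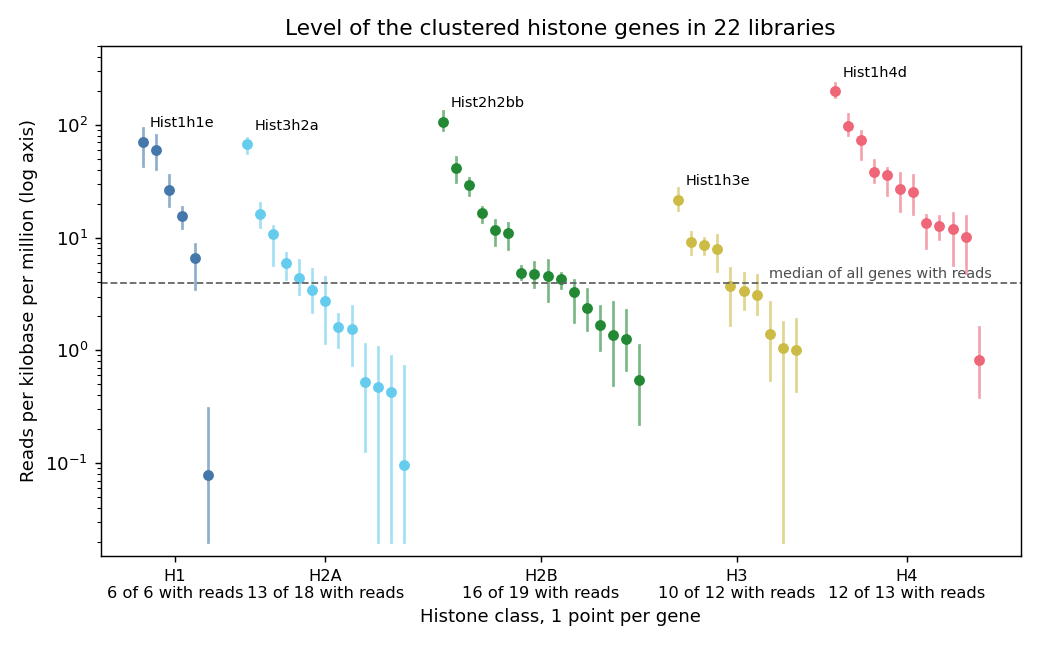
Level of each clustered histone gene with reads, in RPKM on a log axis, by histone class; points are means over 22 libraries and lines run from the lowest to the highest library, with libraries at 0 drawn at the lower end. Hist1h4d is highest at 199, and the dashed line marks the median of all genes with reads, 3.98.

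The 11 genes at 0 in every library were Hist1h2aa, Hist1h2ao, Hist1h2ap, Hist1h2ba, Hist1h2bq, Hist1h2br, Hist1h4m, Hist2h2aa1, Hist2h2aa2, Hist2h3c1 and Hist2h3c2. Several histone genes have nearly the same sequence as another, which bears on how many reads can be placed. The share of a gene's 85-base stretches, the length of a read, that also occur in another member had a median of 6.09% in H1, 68.4% in H2A, 41.4% in H2B, 67.1% in H3 and 44.0% in H4. Of 8 genes that shared 90% or more of their stretches, 6 were at 0 in all libraries and the highest level was 3.32 RPKM. Of 20 genes that shared less than 20%, 1 was at 0, and their median level was 15.8. Of these 8 genes 7 also shared annotated exon bases with another member, as did 9 of the 11 genes at 0 and 1 gene with reads, so that a read there lies in both genes. Hist1h2bq and Hist1h2br shared all of their 4242 bases. Low levels thus fell on genes with shared sequence and with shared exons alike. How reads with several matches, or within both of 2 genes, were counted is not stated. A level of 0 in genes that share most of their sequence or exons is therefore no measure of the transcript. Hist1h2aa shared neither, and its count of 0 is bounded by depth alone. Hist1h2ba shared 31% of its stretches and no exon bases, so that most of its stretches occur in no other member. Hist1h4d shared 6.69% of its stretches, Hist2h2bb 0, Hist3h2a 1.65% and Hist1h4c 40.4%. Among the genes called between the female and male tables (below), the share ran from 0 in Hist1h1b to 82.9% in Hist1h2ai. It was 66.7% in Hist1h4k and 50.3% in Hist1h4b.

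The stem-loop that ends histone RNAs was found in the annotated transcripts of 46 of the 68 genes (GENCODE vM21), in 4 of 6 H1, 11 of 18 H2A, 10 of 19 H2B, 9 of 12 H3 and 12 of 13 H4 genes. Only annotated transcripts were searched. Some without a match were shorter than the counted exon of their gene, as for Hist2h2bb, Hist1h2bl, Hist1h2ai, Hist1h3h and Hist1h4k. For such genes a missing match does not show that the RNA lacks the stem-loop. The form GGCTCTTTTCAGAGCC was carried by 10 H2A, 8 H2B, 5 H3 and 3 H1 genes, and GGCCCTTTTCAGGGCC by 7 H4 genes. In 44 of the 46 the counted exon ended at most 60 bases past the stem-loop, and the median over the 46 was 5 bases. In Hist1h4j it ended before the stem-loop, and in Hist1h2be it ran 1861 bases past it. For 18 of the 46 the annotated transcript ran over 300 bases past it, by 840 bases in Hist1h1c, 4884 in Hist1h1d, 1153 in Hist1h1e and 454 in Hist1h4c. In 16 of the 18 the counted exon ended at most 60 bases past the stem-loop, and reads further on were not in their counts. Whether the counted reads came from RNAs with or without a poly-A tail was not measured. The element is shown for the 4 genes that passed the test between male cages and for the most abundant H2A, H3 and H4 genes, in capitals, with 5 bases on either side in lower case (GRCm38).
Hist1h1c, chr13:23739507-23739532, plus strand: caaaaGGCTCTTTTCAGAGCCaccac
Hist1h1d, chr13:23555782-23555807, plus strand: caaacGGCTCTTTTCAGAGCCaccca
Hist1h1e, chr13:23621777-23621802, minus strand: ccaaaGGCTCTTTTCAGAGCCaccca
Hist1h4c, chr13:23698084-23698109, minus strand: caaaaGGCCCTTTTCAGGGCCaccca
Hist3h2a, chr11:58955167-58955192, plus strand: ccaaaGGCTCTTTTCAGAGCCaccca
Hist1h3e, chr13:23561898-23561923, minus strand: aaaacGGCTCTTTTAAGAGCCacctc
Hist1h4d, chr13:23581945-23581970, plus strand: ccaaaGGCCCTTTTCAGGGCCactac

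Rank was compared first, which asks whether dominant and submissive mice of a sex differ. In males no histone gene passed the test, and the median difference was close to that of all genes. Of the linker histones, Hist1h1e had 51.1, 55.3 and 65.0 CPM as lowest, median and highest level in 7 dominant males and 50.4, 63.1 and 73.6 in 7 submissive males. Both ranges overlapped over most of their span. Its log2 difference, dominant minus submissive, was -0.11 (SE 0.079), and it was -0.068 without submissive male 7. By edgeR, 0 of 45 histone genes tested were called at an adjusted p under 0.05 (0% of 14737 genes), and 0 had an unadjusted p under 0.05 (1.32% of all genes); DESeq2 called 0 as well, with 0 at an unadjusted p under 0.05 (0% and 0.808% of all genes). The median log2 difference of the 45 was -0.023 against -0.0015 over all genes, with 18 positive and 27 negative. All 5 H1 genes were negative (-0.20 to -0.022). H4 genes were negative in 8 of 11, H2A genes in 4 of 9, H2B genes in 6 of 13 and H3 genes in 4 of 7. With the cage as a replicate block, 0 of 51 were called and 2 had an unadjusted p under 0.05 (2.385% of all genes), 1 higher and 1 lower in dominant males. In the fit without this block, the smallest p belonged to Hist1h2bh, an H2B gene. It had 0.530 to 1.19 CPM in dominant males and 0.642 to 1.29 in submissive males. Its log2 difference was -0.42 (SE 0.22, adjusted p 1.00 by edgeR, lower in 4 of 7 cages). Without male cages 5 to 7 the count called was 0 and the median -0.055, and without the cage of dominant male 1 the count was 0 and the median -0.029. Without dominant male 1 alone the count was 0 and the median 0.0044, with 23 positive and 22 negative, so that the sign of the median turned without this library. Without dominant male 6 the count was 0 and the median -0.048, with 11 positive and 34 negative. Of these genes, 3 then had an unadjusted p under 0.05 (1.426% of all genes), all lower in dominant males.

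In females more histone genes lay lower in dominant mice, and none passed the test. Hist1h1e stood at 45.1, 53.8, 34.04 and 42.8 CPM in dominant females 1 to 4 and at 48.8, 54.7, 43.5 and 54.3 in their submissive partners. The dominant mouse was the lower of the pair in all 4 cages, while the ranges of the 2 ranks overlapped. The log2 difference was -0.20 (SE 0.095, adjusted p 0.466 by edgeR), and it was -0.097 without dominant female 3 and -0.32 without dominant female 2. Hist3h2bb-ps, listed as an H2B pseudogene, had 3.65, 4.04, 3.80 and 5.10 CPM in dominant and 5.04, 5.94, 5.33 and 5.00 in submissive females. Dominant females 1 to 3 lay below all 4 submissive females and dominant female 4 did not, and the log2 difference was -0.37 (SE 0.13, adjusted p 0.290). Hist2h2ab, an H2A gene, had 4.92, 4.10, 4.84 and 3.27 in dominant and 5.54, 5.57, 5.26 and 4.41 in submissive females, a log2 difference of -0.28 (SE 0.14, adjusted p 0.482), lower in 4 of 4 cages, and the difference was -0.18 without dominant female 4. Among positive differences, Hist1h1b had 6.93, 6.57, 6.42 and 6.99 in dominant and 5.79, 5.69, 6.25 and 5.90 in submissive females. Here every dominant female lay above every submissive one, and the log2 difference was 0.18 (SE 0.099, adjusted p 0.557).

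In all, edgeR called 0 of 48 histone genes between female ranks (0.0942% of 14865 genes called), 2 had an unadjusted p under 0.05 (10.5% of all genes), and DESeq2 called 0 with 1 at an unadjusted p under 0.05 (0.518% and 6.875% of all genes). The signs were 15 positive and 33 negative, and the median was -0.10 against -0.0020 over all genes. By class the median was -0.090 for H1, -0.12 for H2A, -0.073 for H2B, -0.012 for H3 and -0.13 for H4, of which 10 of 11 genes were negative. With the replicate block for the cage, 0 of 50 were called (0.250% of all genes), 5 had an unadjusted p under 0.05 (10.1% of all genes), and the median was -0.10. It was -0.055 within female cages 1 and 2 and -0.099 within cages 3 and 4. Without submissive female 1 it was -0.032, and with the trend over gene length removed it was -0.059.

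Over all 11 cages, with each mouse compared with its partner, the linker histone Hist1h1e was lower in the dominant mouse in 9 cages. Its log2 difference was -0.14 (SE 0.039), and its adjusted p by edgeR was 1.00. No histone gene was called out of 52 (0% of 15475 genes), and 4 had an unadjusted p under 0.05 (2.82% of all genes), namely Hist1h1e, Hist1h4n (-0.55), Hist2h2ab (-0.21) and Hist1h2bk (0.43). DESeq2 called 0, with 1 at an unadjusted p under 0.05 (0% and 0.549% of all genes). Of the 52 differences, 19 were positive and 33 negative, with a median of -0.031 (-0.049 without either mouse of male cage 6) against 0.0012 over all genes. All 5 H1 and all 12 H4 genes were negative (H4 from -0.55 to -0.0074), while 7 of 10 H3 genes were positive. Hist1h1c, Hist1h1e, Hist1h2bf and Hist1h4n were lower in the dominant mouse in at least 9 of 11 cages, 4 of 52 members beside 2.29% of all genes tested. Without male cages 5 to 7, 0 of 50 were called, 7 had an unadjusted p under 0.05 (4.205% of all genes in either direction), all lower in dominant mice, and the median was -0.063. Without the cage of dominant male 1, 0 of 52 were called, 5 had an unadjusted p under 0.05 (3.67% of all genes) and the median was -0.022.

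The sum over all histone genes shows the size of these differences cage by cage. The dominant and submissive mouse had 507 and 533 CPM in male cage 1, 577 and 600 in cage 2, 549 and 575 in cage 3, and 550 and 564 in cage 4. In male cages 5, 6 and 7 the values were 615 and 644, 676 and 632, and 605 and 629. In females they were 586 and 615 in cage 1, 578 and 596 in cage 2, 516 and 545 in cage 3, and 539 and 581 in cage 4. The dominant mouse thus had the lower sum in 10 of 11 cages, with male cage 6 the exception, and the gap within a cage was small beside the spread between cages. The sum is weighted to the abundant genes. Counted by gene, 27 members were lower and 28 higher in the dominant mouse of male cage 2, and 28 and 29 in male cage 7. The share lower ran from 38.2% in male cage 6 to 73.7% in female cage 1, beside 46.99 to 52.02% of all genes with reads in both mice. The mean log2 ratio was -0.036 (SD 0.061, n = 7 cages) in males and -0.075 (SD 0.028, n = 4 cages) in females. With the trend over gene length removed the female value was -0.03665, and the dominant mouse was still the lower in 10 of 11 cages. By class, the dominant mouse had the lower sum in 10 of 11 cages for H4, 8 for H1, 7 for H2A, 7 for H2B and 6 for H3.

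**Figure D2:**
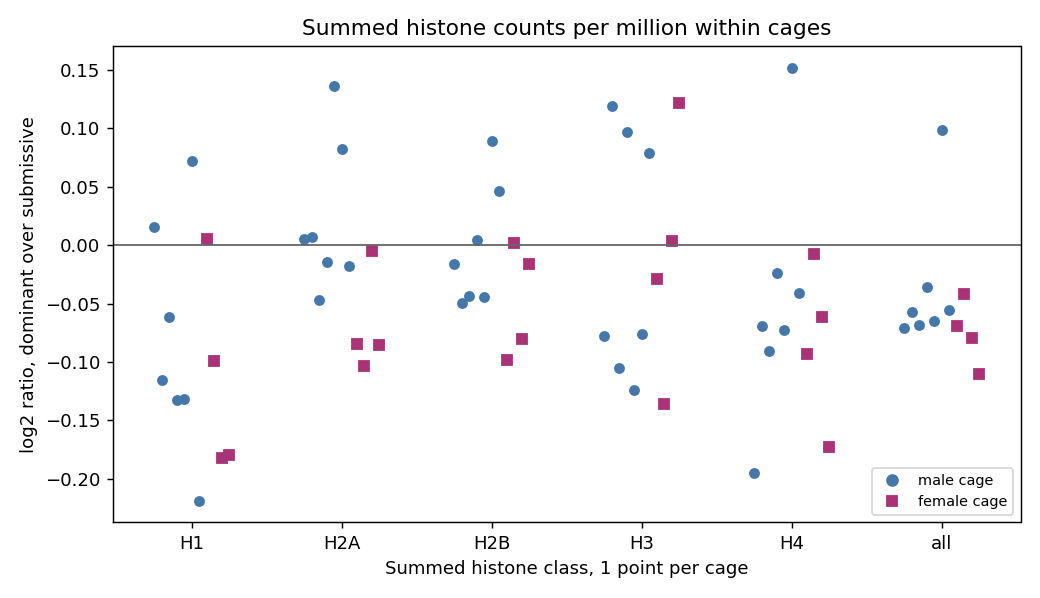
Log2 ratio of the dominant over the submissive mouse of each cage for the summed CPM of each histone class and of all 68 genes; circles are the 7 male cages and squares the 4 female cages. For all genes together 10 of 11 cages lie below 0.

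Whether the rank difference itself depended on sex was tested as an interaction. The interaction called 0 of 51 histone genes by edgeR (0% of 15233 genes) and 0 by DESeq2, with 2 at an unadjusted p under 0.05 by either tool (3.32% of all genes by edgeR and 2.80% by DESeq2). These were Hist3h2bb-ps, with a female minus male difference of the rank effect of -0.37 (SE 0.15), and Hist1h1b with 0.39 (SE 0.18). Hist1h1b was higher in the dominant mouse in 4 of 4 female cages and lower in 5 of 7 male cages, and both adjusted p values were 0.999.

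Genes that act on histone RNAs and histone proteins were taken as lists beside the clusters. Between ranks none of them passed the test in any of the 4 comparisons by edgeR. At an unadjusted p under 0.05 in females (10.5% of all genes) were 0 of 18 genes of histone RNA processing and 2 of 11 replication-independent histones (H3f3b with -0.088 and H1f0 with -0.12). There were also 0 of 13 histone chaperones, 0 of 17 genes of S phase and the cell cycle and 0 of 3 other RNAs without a poly-A tail. In males (1.32% of all genes) the counts were 0 of 18, 0 of 11, 0 of 12, 1 of 16 (Mcm7, part of the replicative helicase, with -0.14) and 0 of 2. The other RNAs without a poly-A tail that were tested were all negative, 3 in females (median -0.067), 2 in males (-0.041) and 3 over all cages (-0.063). None of the cell type markers was called between ranks by edgeR. DESeq2 called 1, the astrocyte marker Slc1a2 in females (adjusted p 0.0355), which edgeR put at a log2 difference of 0.11 (adjusted p 0.168). All 3 choroid plexus markers (Ttr, Folr1 and Kl) had an unadjusted p under 0.05 in females, with a median of -0.35, and 2 of 3 in males, with a median of 0.30. Their sum was 760, 825, 712 and 668 CPM in dominant and 873, 640, 969 and 912 in submissive females, so that the ranks overlapped. The other markers with an unadjusted p under 0.05 in females by edgeR were Slc1a2, Gpr17 (0.28), Alas2 (0.65) and Doc2g (-0.57), markers of astrocytes, oligodendrocyte precursors, red cells and olfactory bulb. The part of these markers in the histone differences was not tested.

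Cages were compared next, with rank held as a term, which asks whether pairs of mice from the same cage resemble each other. In male cages 3 linker histone genes and 1 H4 gene passed the test, and all 4 were highest in male cages 5 to 7. Hist1h1c had cage means of 39.6, 41.4, 37.8 and 44.0 CPM in male cages 1 to 4 and of 54.1, 56.5 and 49.6 in male cages 5 to 7. Single mice ran from 36.3 to 45.7 in the first 4 cages and from 48.0 to 59.3 in the other 3, without overlap. The highest cage mean was 1.49 times the lowest, the median gap between cage mates was 3.02, and the adjusted p was 0.00267 by edgeR. Hist1h1e had 52.2, 59.1, 50.8 and 58.2 in the first 4 cages and 67.1, 64.3 and 65.6 in the last 3, with a ratio of 1.32 and an adjusted p of 0.0403. The cage means separated, and single mice of both sets of cages overlapped. Hist1h1d had 16.4, 22.7, 18.0 and 19.99, and then 24.5, 23.9 and 22.8, with a ratio of 1.497 and an adjusted p of 0.0254. Male cage 2 lay near the last 3 cages for this gene. Hist1h4c had 31.2, 35.0, 32.6 and 31.8, and then 38.7, 43.6 and 38.3, with a ratio of 1.40 and an adjusted p of 0.0141, and every mouse of the last 3 cages lay above every mouse of the first 4.

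**Figure D3:**
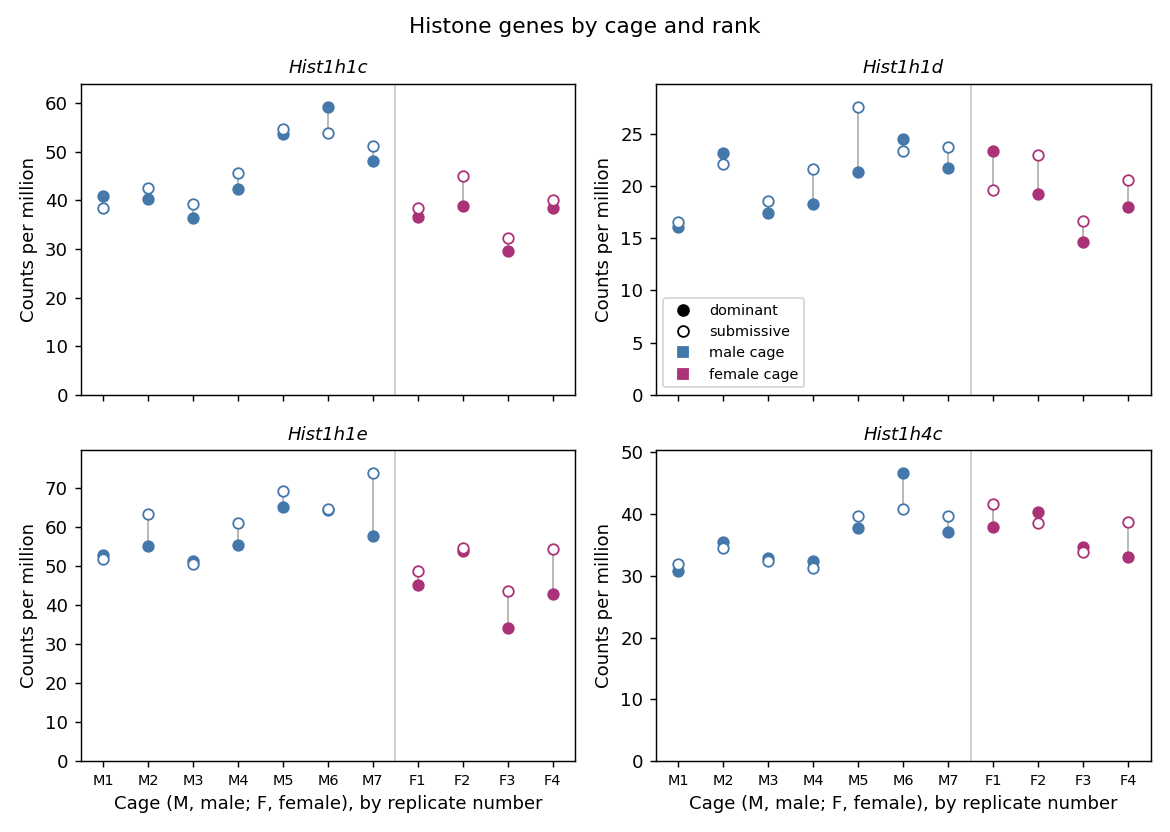
CPM of the 4 histone genes called between male cages, by cage, for the 7 male and the 4 female cages; filled points are dominant and empty points submissive mice, and a line joins cage mates. Male cages 5 to 7 have the highest cage means of all 11 cages for Hist1h1c, from 49.6 to 56.5.

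In all, edgeR called 4 of 51 histone genes between male cages (5.71% of 15304 genes called), and 11 of 51 had an unadjusted p under 0.05 (21.8% of all genes). DESeq2 called 4 (6.34% of all genes). The members' share was thus near that of all genes. By class, H1 had 3 of 5 genes called and H4 had 1 of 12, while 0 of 9 H2A, 0 of 15 H2B and 0 of 10 H3 genes were called, with 0, 3 and 0 at an unadjusted p under 0.05. Without male cages 5 to 7, 0 of 48 histone genes and 2 of 15111 genes were called, with 5 histone genes at an unadjusted p under 0.05 (3.16% of all genes). Without male cages 1 to 4, 0 of 50 and 0 of 15023 were called, with 2 at an unadjusted p under 0.05 (4.61% of all genes). These smaller sets of 8 and 6 mice gave few calls over all genes, so that the counts of 0 do not show how far the cages differed within a set. Within male cages 1 to 4 the highest cage mean was 1.16 times the lowest for Hist1h1c, 1.16 for Hist1h1e, 1.38 for Hist1h1d and 1.12 for Hist1h4c, and within male cages 5 to 7 it was 1.14, 1.04, 1.075 and 1.14 times the lowest. Without the cage of dominant male 1, 3 of 51 were called (11.99% of all genes). With the trend over gene length removed 2 were called (3.63% of all genes), and without dominant male 6 it was 1 (2.36%), without dominant male 3 it was 2 (2.57%) and without submissive male 3 it was 2 (2.78%). Hist1h1c was called without each of the 14 libraries in turn. Hist1h4c was not called without dominant male 6 (adjusted p 0.0650 by edgeR). Hist1h1d was not called without dominant male 3, 6 or 7 or submissive male 3 or 7 (0.0521 to 0.0758). Hist1h1e was called only without dominant male 1 or 7 or submissive male 1 or 7, and its adjusted p without each of the other 10 was 0.0559 to 0.153.

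Other genes and cell type markers moved with the same cages. H1f0, the linker histone of cells that do not divide, had cage means of 82.4, 83.1, 83.9 and 87.3 CPM in male cages 1 to 4 and 99.2, 105 and 99.3 in male cages 5 to 7 (adjusted p 0.0482 by edgeR), 1 of 11 replication-independent histones called. No gene of histone RNA processing (0 of 18, 3 at an unadjusted p under 0.05), no chaperone (0 of 13, 6), no gene of S phase and the cell cycle (0 of 20, 0) and no other RNA without a poly-A tail (0 of 3, 2) was called by edgeR. Over all genes 5.71% were called and 21.8% had an unadjusted p under 0.05. DESeq2 called 1 processing gene, Cstf2 (adjusted p 0.0235). Among markers, 1 of 1 for endothelium was called (Cldn5, adjusted p 0.0025), and its cage means were 26.5, 28.1, 29.1 and 23.4, and then 40.1, 36.8 and 36.9. Oligodendrocyte precursors had 2 of 4 called (Gpr17 and Cspg4), with summed cage means of 183, 178, 177 and 184, and then 167, 157 and 166. Endothelial and precursor markers thus went opposite ways. Astrocytes had 1 of 3 called (Slc1a2), with summed cage means of 3323 to 3650 in male cages 5 to 7 and 3779 to 4001 in the others. Neurons had 1 of 3 called (Rbfox3), and neuroblasts 1 of 6 (Dcx). Of oligodendrocyte, microglia, cerebellum, olfactory bulb, choroid plexus, bone marrow and red cell markers none was called (0 of 2, 0 of 2, 0 of 4, 0 of 2, 0 of 3, 0 of 3 and 0 of 1). In bulk tissue, fewer cells of a type and less RNA per cell cannot be told apart, and the part of these cells in the histone levels was not tested.

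In female cages the same 3 linker histones had the smallest p values and did not pass the test. Hist1h1c had cage means of 37.6, 41.9, 30.8 and 39.2 CPM in female cages 1 to 4 (adjusted p 0.0731 by edgeR, highest over lowest 1.36). Hist1h1e had 46.9, 54.2, 38.8 and 48.6 (adjusted p 0.0844, 1.40), and Hist1h1d had 21.5, 21.1, 15.7 and 19.3 (adjusted p 0.578, 1.38). Female cage 3 was the lowest for all 3, and both of its mice lay below every other female for Hist1h1c. By edgeR 0 of 50 histone genes were called between female cages (0.0725% of 15177 genes called) and 7 had an unadjusted p under 0.05 (5.08% of all genes), 3 of them of H1. DESeq2 called 0, with 3 at an unadjusted p under 0.05 (0.0329% and 0.626% of all genes). Without submissive female 4 the count by edgeR was 2 (0.201% of all genes), and it was 1 without dominant female 2 (0.642%), dominant female 4 (0.123%), submissive female 2 (0.311%) or submissive female 3 (0.169%). In the lists 0 genes were called in this comparison, with 0 of 18 for processing, 0 of 11 for replication-independent histones, 1 of 14 for chaperones, 0 of 19 for S phase and 2 of 3 for other RNAs without a poly-A tail at an unadjusted p under 0.05. No cell type marker was called either, and at an unadjusted p under 0.05 were 2 of 2 for olfactory bulb, 2 of 4 for cerebellum, 1 of 1 for endothelium, 1 of 1 for red cells, 1 of 3 for astrocytes and 0 in the other marker lists.

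Female cages 3 and 4, with group names, were then set against female cages 1 and 2. The fit held rank as a term and took the 8 mice as independent, although each side had only 2 cages. The H4 gene Hist1h4c had 37.9, 40.3, 41.6 and 38.5 CPM in cages 1 and 2 and 34.6, 32.9, 33.8 and 38.7 in cages 3 and 4. Only submissive female 4 of cages 3 and 4 reached the range of cages 1 and 2, and the log2 difference, cages 3 and 4 minus cages 1 and 2, was -0.18 (SE 0.055, adjusted p 0.696 by edgeR). Hist1h2bg, an H2B gene, had 5.73, 5.91, 5.98 and 5.88 against 4.45, 4.97, 3.94 and 4.71, without overlap, and a log2 difference of -0.38 (SE 0.11, adjusted p 0.696). Hist1h1d had 23.4, 19.3, 19.6 and 23.0 against 14.7, 18.0, 16.6 and 20.6, and a difference of -0.29 (SE 0.090, adjusted p 0.696), with 1 mouse of cages 3 and 4 inside the other range. EdgeR called 0 of 50 histone genes (0.00667% of 14998 genes called), and 9 had an unadjusted p under 0.05, all lower in cages 3 and 4 (5.55% of all genes in either direction). DESeq2 called 0, with 5 at an unadjusted p under 0.05 (0.0133% and 2.15% of all genes). Signs were 11 positive and 39 negative, with a median of -0.15 against 0.00044 over all genes. H4 genes were negative in 11 of 12, H2A in 8 of 9, H3 in 7 of 9, H1 in 4 of 5 and H2B in 9 of 15. The median was -0.026 for 11 replication-independent histones and 0.034 for 18 genes of S phase and the cell cycle. It was -0.14 for 3 other RNAs without a poly-A tail (Rpph1 with -0.14 and Rmrp with -0.090), near the median of the histone genes. Of the lists 0 genes were called by edgeR here, with 1 of 18 for processing, 2 of 11 for replication-independent histones, 3 of 14 for chaperones, 0 of 18 for S phase and 2 of 3 for other RNAs without a poly-A tail at an unadjusted p under 0.05. No cell type marker was called, and those at an unadjusted p under 0.05 were Gpr17 of oligodendrocyte precursors (-0.16) and Folr1 of choroid plexus (0.22). Of 4 cerebellar markers 4 were positive, with a median of 0.080, and of 2 olfactory bulb markers 2 were positive, with a median of 0.34.

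Motifs known from histone promoters were looked for because 3 of the 4 genes called between male cages were linker histones, which also had the 3 smallest p values between female cages. RefSeq promoters (GRCm38.p6, 250 bases before to 50 after the start) were matched for 62 of 68 members by 61 different windows, since Hist1h2ao and Hist1h2ap were matched to the same one. None was found for Hist1h2bc, Hist1h3a, Hist1h3f, Hist2h2be, Hist2h4 and Hist3h2bb-ps. Windows of H2A and H2B genes on opposite strands can overlap, and a site there counts for both genes. The H1 box of Hist1h2aa and that of Hist1h2ba are the same site. Hist1h2bq and Hist1h2br have windows with the same bases. The counts for H2A and H2B are thus not of separate promoters throughout. Both strands were searched, and overlapping matches were counted. The H1 box AAACACA occurred in 5 of 6 H1, 2 of 18 H2A, 2 of 16 H2B, 0 of 10 H3 and 0 of 12 H4 promoters, and in 7.18% of 32851 promoters. CCAAT occurred in every matched H1, H2A, H2B and H3 promoter, in 3 of 12 for H4, and in 37.4% of all. TATAAA occurred in 35 of 62 members, which is 56.5%, and in 13.6% of all. The octamer ATTTGCAT occurred in 7 H2A and 6 H2B promoters, in none of H1, H3 and H4, and in 1.74% of all. A match describes these letters in this window only. The promoters of the 4 genes called between male cages follow, 5′ to 3′ on the gene's strand, with matches to these 4 motifs in capitals.
Hist1h1c, chr13:23738557-23738856, plus strand: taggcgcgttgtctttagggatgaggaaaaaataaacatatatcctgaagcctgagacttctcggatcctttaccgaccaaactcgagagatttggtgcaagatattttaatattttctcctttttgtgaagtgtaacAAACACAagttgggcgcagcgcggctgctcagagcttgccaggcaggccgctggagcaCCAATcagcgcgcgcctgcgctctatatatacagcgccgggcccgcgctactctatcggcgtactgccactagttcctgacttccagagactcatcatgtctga
Hist1h1d, chr13:23554782-23555081, plus strand: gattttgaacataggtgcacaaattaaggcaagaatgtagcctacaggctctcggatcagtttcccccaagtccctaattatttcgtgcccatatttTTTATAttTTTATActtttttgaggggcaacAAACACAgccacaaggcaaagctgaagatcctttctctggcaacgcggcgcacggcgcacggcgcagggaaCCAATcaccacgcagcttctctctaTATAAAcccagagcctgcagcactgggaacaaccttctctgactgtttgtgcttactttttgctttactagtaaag
Hist1h1e, chr13:23622509-23622808, minus strand: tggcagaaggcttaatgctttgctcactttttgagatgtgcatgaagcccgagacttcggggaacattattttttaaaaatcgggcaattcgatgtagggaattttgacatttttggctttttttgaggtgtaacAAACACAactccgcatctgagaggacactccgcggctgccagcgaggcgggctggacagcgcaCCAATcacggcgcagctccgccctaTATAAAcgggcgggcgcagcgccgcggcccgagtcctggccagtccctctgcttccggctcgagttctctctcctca
Hist1h4c, chr13:23698409-23698708, minus strand: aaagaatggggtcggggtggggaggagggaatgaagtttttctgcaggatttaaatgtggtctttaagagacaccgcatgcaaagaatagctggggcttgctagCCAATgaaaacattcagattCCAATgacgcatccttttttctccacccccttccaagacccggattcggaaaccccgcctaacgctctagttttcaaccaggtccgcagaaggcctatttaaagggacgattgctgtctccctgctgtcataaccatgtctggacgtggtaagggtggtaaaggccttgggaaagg

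In each of the 3 linker histone promoters the H1 box lay before CCAAT, with their first bases 112 and 54 bases before the start in Hist1h1c, 122 and 51 in Hist1h1d, and 115 and 52 in Hist1h1e. This layout was not particular to the called genes. Hist1h1b held the H1 box at 117 and CCAAT at 66 and 53, with a further CCAAT at 168. Hist1h1t held them at 114 and 65. Hist1h4c held CCAAT 146 and 126 bases before its start and none of the other 3 motifs.

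The last comparison set the female table against the male table. Histone genes were called in both directions. The 3 H4 genes called were higher and the 3 H3 genes called were lower in females, while members of both classes that were not called had either sign. Over all genes 18.4% were called higher and 17.8% lower in females. Hist1h4k, an H4 gene, had 6.67, 8.78 and 11.1 CPM as lowest, median and highest of 14 males, and 11.9, 14.5, 11 and 11.2 in dominant and 13.04, 14.2, 12.1 and 13.9 in submissive females. All females lay above 13 of the 14 males, and only the highest male, dominant male 6, reached their range. The log2 difference, female minus male, was 0.51 (SE 0.073, adjusted p 4.90e-06 by edgeR). Hist1h4b, also of H4, had 2.20, 4.07 and 5.21 in males and 4.63 to 6.93 in females, a difference of 0.46 (SE 0.12, adjusted p 0.00347). Hist1h4h had 21.7, 31.6 and 34.5 in males and 32.1 to 38.5 in females, a difference of 0.19 (SE 0.063, adjusted p 0.0222). It was not called without dominant female 1 or 2 or submissive female 1 or 2 (adjusted p 0.0525 to 0.0774 by edgeR). The lowest male for both was dominant male 1. Of 12 H4 genes tested, 3 were called, all higher in females (18.4% of all genes called higher), and 9 had a positive difference.

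H1 genes went both ways. Hist1h1b had 2.77, 4.57 and 6.21 CPM in 14 males, 6.93, 6.57, 6.42 and 6.99 in dominant and 5.79, 5.69, 6.25 and 5.90 in submissive females, and the log2 difference was 0.44 (SE 0.089, adjusted p 0.000314 by edgeR). Dominant females lay above every male, and submissive females overlapped with the highest males. Hist1h1e had 50.4, 59.3 and 73.6 in males and 34.04 to 54.7 in females, a difference of -0.34 (SE 0.074, adjusted p 0.00066). Hist1h1c had 36.3, 44.1 and 59.3 in males and 29.5 to 45.0 in females, a difference of -0.31 (SE 0.085, adjusted p 0.00601). For both, the mice of male cages 5 to 7 lay above every female, and those of the other male cages overlapped with females. Of 5 H1 genes 1 was called higher and 2 lower, beside 18.4% and 17.8% of all genes.

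Among core histones other than H4, Hist3h2a (H2A) had 28.4, 32.9 and 36.6 CPM in males and 33.9 to 38.8 in females, a log2 difference of 0.14 (SE 0.041, adjusted p 0.00777 by edgeR). Hist3h2ba (H2B), from the same Hist3 group, had 16.3, 20.1 and 24.0 in males and 14.3 to 19.1 in females, a difference of -0.26 (SE 0.060, adjusted p 0.00131). These 2 genes of 1 group thus differed in opposite directions, and both overlapped between the tables. All 3 H3 genes called, of 10 tested, were lower in females, beside 17.8% of all genes called lower. They were Hist1h3f with -0.36 (SE 0.088), Hist1h3a with -0.39 (SE 0.12) and Hist1h3e with -0.18 (SE 0.066). Hist1h2ai (H2A) was called lower with -0.50 (SE 0.19), at 0.923 to 1.97 CPM in males and 0.523 to 2.02 in females, so that the highest mouse of all was a female. The adjusted p values of these 4 genes were 0.00215, 0.0145, 0.0372 and 0.0372 by edgeR. Hist1h2ai was -0.77 without dominant female 1, and it was not called without 7 other libraries in turn (dominant females 2 to 4, submissive females 1 and 2, dominant male 2 and submissive male 3, adjusted p 0.0509 to 0.0854). Hist1h3e was not called without dominant female 2 or 3 or submissive female 2 or 3 (0.0527 to 0.0703), and Hist1h3a was not called without submissive female 4 (0.0506).

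In all, 12 of 51 histone genes were called by edgeR between the tables (36.2% of 15233 genes called), 5 higher in females (18.4% of all genes) and 7 lower (17.8% of all genes), and 16 had an unadjusted p under 0.05 (44.9% of all genes). DESeq2 called 12 (35.5% of all genes). The median of the 51 was -0.026, beside -0.00015 over all genes. It was -0.057 without dominant female 1 and from -0.049 to -0.019 without each of the other libraries. For no histone gene did all 8 females lie above all 14 males or below them (4.03% of all genes above and 2.07% below). Compared within 1 rank, 7 of 51 were called among dominant mice (18.2% of all genes) and 5 among submissive mice (23.9% of all genes). The spread in these tests was still estimated from all 22 libraries, cage mates among them. Without male cages 5 to 7, 11 of 50 were called (46.1% of 15107 genes), 8 higher and 3 lower in females. Hist1h4c (0.19), Hist1h4f (0.18) and Hist1h4j (0.44), all of H4, were then called higher, and Hist1h1e (-0.23), Hist3h2ba (-0.20) and Hist1h3f (-0.32) were still called lower. Hist1h1c was no longer called, with -0.12 (adjusted p 0.122), nor were Hist1h3a with -0.26 (adjusted p 0.134), Hist1h3e with -0.17 (adjusted p 0.0967) and Hist1h2ai with -0.51 (adjusted p 0.0757), all by edgeR and all still lower in females.

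**Figure D4:**
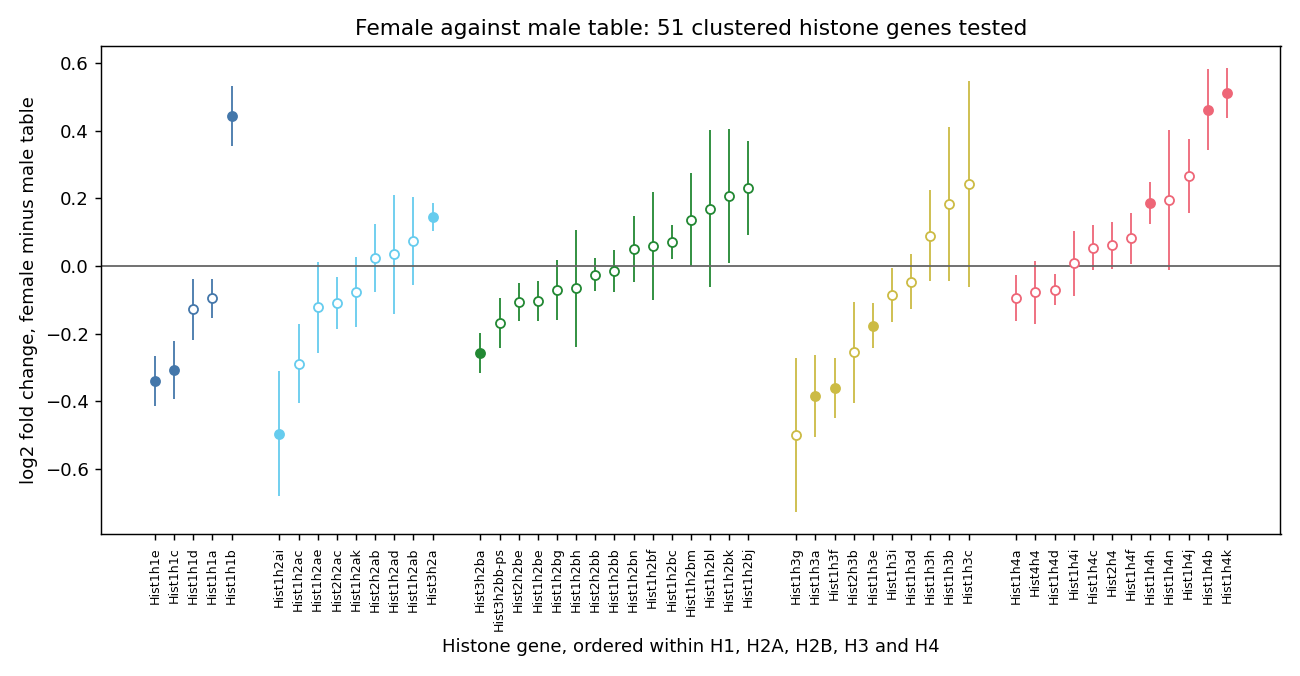
Log2 difference, female minus male table, of the 51 clustered histone genes tested, ordered within class; bars are the standard error of the fit over 8 females and 14 males, and filled points have an adjusted p under 0.05 by edgeR. The 3 called H4 genes lie above 0 and the 3 called H3 genes below it.

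Genes of the lists were compared between the tables beside the 36.2% of all genes called. Of 11 replication-independent histones, 6 were called by edgeR and all 6 were higher in females. Of the 11, 10 had a positive and 1 a negative difference (Cenpa, -0.39, adjusted p 0.0919), with a median of 0.17. The linker histone H1f0 had 77.8, 87.7 and 107 CPM in males and 97.1 to 123 in females, a log2 difference of 0.32 (SE 0.056, adjusted p 5.96e-05 by edgeR). H1fx (0.53), H2afx (0.31), H2afv (0.24), H2afy2 (0.23) and H2afy (0.17) were also called. H3f3b, the most abundant of the list at 224 CPM, was not. Of 18 genes of histone RNA processing, 3 were called, all higher in females. Whether this share differs from that of all genes was not tested. The 3 genes were Sympk, a scaffold of the cleavage complex (0.48), Upf1, needed for decay of histone RNAs (0.32), and Lsm11, a protein of the U7 particle (0.19). Slbp, which binds the stem-loop, had 22.4, 25.4 and 27.5 CPM in males and 24.4 to 28.0 in females, and Npat had 66.1, 73.9 and 85.4 and 68.5 to 75.5, and neither was called. Of 13 histone chaperones 4 were called higher (Cabin1, Daxx, Nap1l1 and Nap1l4, from 0.076 to 0.15) and 1 lower (Ubn1, -0.19), with Atrx the most abundant at 535 CPM. Of 19 genes of S phase and the cell cycle 3 were called higher (Rrm2, Mcm6 and Ccne2) and 2 lower (Mcm7 and Cdc6). This share was not tested against that of all genes either, and 7 of the 19 were positive and 12 negative. The summed level of this list was 140 to 154 in males and 142 to 154 in females, and Mki67, a marker of dividing cells, had a mean of 3.87. Of 8 other RNAs without a poly-A tail 3 were in the tables, and Rpph1 was higher in females (0.25) while Rmrp was lower (-0.21), so that this group held both directions.

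Cell type markers also differed between the tables, beside 36.2% of all genes called by edgeR, and their part in the histone differences was not tested. Neurons had 2 of 3 markers called, both higher (Snap25, the most abundant, and Rbfox3), and their sum was 2691 to 3124 CPM in males and 3344 to 3558 in females. Microglia had 1 of 2 called, higher (Cx3cr1), with P2ry12 the most abundant and sums of 74.3 to 92.0 and 90.9 to 102. Oligodendrocyte precursors had 3 of 4 called, all lower (Cspg4, Gpr17 and Pdgfra, the most abundant), with sums of 154 to 189 and 131 to 150. Neuron and precursor sums thus did not overlap between the tables, and microglia sums overlapped at their edge. Astrocytes had 1 of 3 called, lower (Slc1a2, the most abundant), with sums of 3216 to 4256 in males and 2870 to 3186 in females. Oligodendrocytes had 1 of 2 called, lower (Mbp, the most abundant), with sums of 4033 to 4921 and 3633 to 4452. Neuroblasts had 1 of 6 called, lower (Dcx, the most abundant, -0.55), with 3 positive and 3 negative, a median of -0.0018 and sums of 86.0 to 119 and 79.0 to 97.7. Astrocyte sums did not overlap, and those of the other 2 did. The single endothelial marker Cldn5 was not called. Cerebellum had 1 of 4 called, higher (Cbln1), with Cbln3 the most abundant and sums of 11.1 to 459 and 315 to 516. Choroid plexus had 1 of 3 called, lower (Kl, -0.36), while the other 2 were positive, with Ttr the most abundant (0.22, adjusted p 0.0944), a median of 0.13 and sums of 438 to 1024 and 640 to 969. These sums overlapped. Olfactory bulb had 1 of 2 tested called, lower (Doc2g), with Cdhr1 the most abundant and sums of 5.79 to 18.8 and 5.61 to 13.4. Red cell markers had 1 of 1 tested called, lower (Alas2), with sums of 4.82 to 9.33 and 2.56 to 5.99, while Hba-a1, Hba-a2, Hbb-bs and Hbb-bt were at 0 in all libraries. Bone marrow and white blood cell markers had 0 of 2 tested called, with sums of 0.998 to 7.44 and 0.375 to 2.88, and S100a9 the most abundant.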

How the data were processed

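Total RNA of the right hemisphere, depleted of ribosomal RNA, was sequenced as single-end reads of 22 mice. The authors ran FastQC 0.11.8, cutadapt 1.15 and bbduk on the reads, aligned to mm10 using STAR 2.6.0a, and deposited a raw count per gene from featureCounts 1.6.2, with no normalization. Strand and multi-mapping settings were not stated in the sources used.

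Groups came from the labels, and cages from the library names. Counts were scaled with TMM factors (edgeR 4.0.16, R 4.3.3) and filtered by filterByExpr (min.count 10, min.total.count 15). Genes were tested by quasi-likelihood F-tests of edgeR, all genes at once, with rank alone within a sex, cage and rank over all cages and for the cage tests, pair of cages (3 and 4 against 1 and 2) and rank for the female cages with group names, and sex, rank and their interaction for the tables, with Benjamini-Hochberg adjustment over all genes at 0.05. DESeq2 1.42.0 was run beside it. Total counts of 12403943 to 16488762 set the precision, with 3 counts as the limit for a count of 0. Tests were tried on simulated data. Figures and levels were made in Python 3.11.15.

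Named histone genes are the 10 highest per kilobase, the most abundant of each class, those with the 3 smallest p values per comparison and direction, and those past the threshold. Hist1h2bf, Hist1h2be and Hist1h4j, the genes at 0, and male cages 5 to 7 were singled out after values were seen, as were the alternatives without these cages and without the cage of dominant male 1. The members, the marker lists and the lists of histone RNA processing, replication-independent histones, histone chaperones, S phase and the cell cycle, and other RNAs without a poly-A tail were chosen with earlier results of these data known. Pairing by cage was checked: after removal of group means, the correlation across genes between cage mates averaged 0.254 (males) and 0.0241 (females), against -0.042 and -0.0080 for other pairs, and genes are not independent replicates. Single pairs of cage mates ran from -0.052 to 0.397 in males and from -0.059 to 0.058 in females. The cage mate was the best match in 1 of 7 male and 1 of 4 female pairs. Alternatives were other size factors, DESeq2, no filter, removal of the trend over gene length, the replicate block, the tables compared within 1 rank, and each library left out. Per-gene sequence came from GENCODE vM21 and RefSeq GRCm38.p6.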

Additional observations from a re-analysis of the deposited data

Results flagged for a closer look

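Among 148 groups of 4 to 7 samples (named histone genes and class sums), 5 held a sample far from the rest of its group, and chance flags about 1 in 20 groups. The gap of that sample to the nearest other, divided by the range of its group, is given for each. Hist1h2bh in dominant female 4 was lowest, with 0.523 CPM against 0.844 to 0.882 (0.893). Hist1h3f in submissive male 5 was highest, with 9.52 against 6.87 to 7.56 (0.742). Hist2h2ab was lowest in dominant male 1, with 2.49 against 4.30 to 5.31 (0.640), and in submissive male 3, with 3.86 against 4.71 to 5.30 (0.591). The H2B sum was lowest in dominant female 3, with 133 against 142 to 142.5 (0.956). Causes were not tested.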

How the results depend on the processing

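Of 315 values of counts, medians and mean ratios under other settings, 17 were marked as moved and 298 were not. A count was marked if it changed beyond a set ratio. A median was marked if it shifted by at least the SD of library medians within groups, 0.059 for female ranks. For mean ratios the SD between cages was used. A change of sign alone was not marked, so that the 298 need not be close to the main values. The male rank median (-0.023 with all) is not among the 17. It was 0.0044 without dominant male 1 and -0.048 without dominant male 6. Of 1104 values of named genes, 1032 kept direction and side of the threshold, 60 lost the call, 10 gained it and 2 changed sign. The 0 calls between ranks held under every setting run. Leaving out each library gave a median rank difference in females of -0.1237 to -0.03168 (-0.0996 with all), the lower size without submissive female 1, and 10 to 14 calls between the tables (12 with all). Compared within 1 rank, the tables gave 7 calls among dominant and 5 among submissive mice. The means then rested on fewer mice, and the spread was still estimated from all libraries. Between male cages the 4 calls (5.71% of all genes called) became 2 with the length trend removed (3.63%), and 0 without male cages 1 to 4 or without male cages 5 to 7, both chosen after seeing the data and with few calls over all genes, and 1 to 6 with each library left out (2.36 to 13.4%). Between female cages the 0 calls (0.0725% of all genes called) became 1 with the length trend removed (0.0922%), 3 without the filter (0.499%), and 0 to 2 with each library left out (0.0842 to 0.642%), where the lone mouse of a cage is assumed to vary like the others. For female cages 3 and 4 against cages 1 and 2, Hist1h2bc was -0.00662 without submissive female 2 (0.051 with all, highest 0.08379) and Hist1h2bb -0.001713 without dominant female 4 (0.074 with all, highest 0.15). The mean within-cage log2 ratio in females was -0.03665 with the length trend removed (-0.075 as reported). The cause was not tested.

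Rank was compared within a sex over the mice of 7 and 4 pairs, with the cage as a term only in an alternative. Tables were compared over mice that share cages. Members with like sequence have few stretches of their own, where the counting of reads is not stated. Sex and any difference in sequencing between the tables cannot be told apart. At 12403943 counts or more, levels under about 0.242 CPM could not be detected in every library.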
